A study of Mus musculus with 17 samples.

Results

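Leukaemia inhibitory factor (LIF) was given to plasmacytoid dendritic cells 1 h ahead of CpG DNA. Its effect was averaged over the cells given CpG-A and the cells given CpG-B. The averaged effect is the mean of CpG-A + LIF minus CpG-A and CpG-B + LIF minus CpG-B. It rests on 12 of the 17 arrays of the series, 6 with LIF and 6 without, and the CpG-A and CpG-B effects share no array. Of 19751 genes measured by a probe set with exactly 1 gene symbol, 10603 (53.7%) had the same sign of effect under both CpGs. The averaged effect passed its test for 35 genes, all with the same sign under both CpGs. Passing does not show an effect under each CpG, since the mean can rest mainly on 1 of them. Tested under each CpG separately, 0 genes passed under both.

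The cells were sorted from the bone marrow of C57BL/6 mice as CD11c-intermediate, B220+ and SiglecH+ after magnetic removal of other cells. CpG-A + LIF and CpG-B + LIF cells received LIF at 10 ng/ml, beginning 1 h ahead of the CpG and lasting 20 to 24 h in all. CpG-A and CpG-B were used at 6 µg/ml for 19 to 23 h, with or without LIF, and each of these 4 groups has 3 arrays. LIF without CpG (3 arrays) and medium (2 arrays) are used only where the effect of LIF in resting cells is set beside the averaged one. The design text of the series gives somewhat different times from the treatment protocol, whose times are used here. The labels do not say whether replicates came from separate mice, so the p-values measure the spread between these samples, which may be technical. The cells are primary and were sorted before treatment, and the labels name no allele that differs between groups.

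LIF belongs to the interleukin-6 family of cytokines. It binds the LIF receptor together with gp130, which activates JAK kinases and the transcription factor STAT3, and STAT3 in turn induces the feedback inhibitor Socs3. Plasmacytoid dendritic cells sense unmethylated CpG DNA through the endosomal receptor TLR9 and are known for secreting large amounts of type I interferon. CpG-A is known mainly for inducing interferon and CpG-B mainly for inducing maturation.

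Each deposited value holds the digits of a linear intensity without its decimal mark, so log2 values are known only up to multiples of log2(10), which is 3.32. Every difference between groups below is therefore built from nearest readings on the log2 scale, each at most 1.66 in size, and a true change over 3.16-fold appears as a smaller one, often with the opposite sign. A called gene is said to read higher or lower only when the readings under both CpGs were at most 1.11 in size (2.15-fold). The other reading would then need at least a 4.64-fold change the opposite way. Where a reading was larger, the direction is called undetermined and the other reading is given. Values of single arrays are log2 readings relative to the mean of the same CpG without LIF, in the order of replicates 1 to 3. Each array was placed the shortest way from the mean of its own group, so a single array can lie beyond 1.66 and has another reading 3.32 away. Absolute levels and signal over background cannot be recovered, so the labelled cell type could not be checked by the presence of its markers, and bulk RNA cannot tell fewer cells of a type from less RNA per cell. The median standard deviation within groups was 0.19 (5th to 95th percentile 0.107 to 0.358), and the median standard error (SE) of an averaged effect was 0.109.

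With CpG present, LIF left more genes reading lower than higher among those that passed the test, and the changes were small. Among the 35 called genes (0.177% of those tested; limma, Benjamini-Hochberg adjusted p under 0.05), 23 read lower (0.116%) and 6 read higher (0.0304%), while 6 had an undetermined direction (0.0304%). With the replicate number as a block over all 17 arrays, 66 genes were called, 18 reading higher and 38 lower, and 34 of the 35 were among them. The numbers were taken to pair samples under CpG-B only, so the block also joins arrays of other groups that are not taken as paired. Genes reading lower included surface receptors such as Nrp1, Il17rb, Jaml and Cdh1, the signalling adaptors Sla2 and Gapt, and the ganglioside enzyme St8sia1. Genes reading higher were Itgax, Dctd, Nudt4, Cfp, St6gal1 and Plscr3. The averaged readings of the called genes were 0.409 to 1.17 in size (1.33-fold to 2.25-fold), with a median of 0.666 (1.59-fold), SEs of 0.0771 to 0.215 and adjusted p-values of 0.0116 to 0.0475. Over all genes the median averaged reading was 0.00447.

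All 35 called genes had the same sign under both CpGs, as did 53.7% of all genes, and a call on the mean of both effects favours such genes by its construction. In 33 of the 35 the arrays with LIF lay entirely on one side of those without it under each CpG, which was so for 306 genes (1.55%) of all tested. The exceptions were Ifna12 and Myo6, whose CpG-B + LIF and CpG-B arrays overlapped. A call on these same arrays favours genes whose arrays are apart, so this separation is no independent support, here or for the single genes below. At an unadjusted p under 0.05, 1736 genes (8.79%) passed, 1679 (8.5%) of them with the same sign under both CpGs, of which 912 (4.62% of all genes) read higher and 732 (3.71%) read lower within the limit. The excess of genes reading lower therefore holds for the called genes and not for this wider set.

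**Figure D1:**
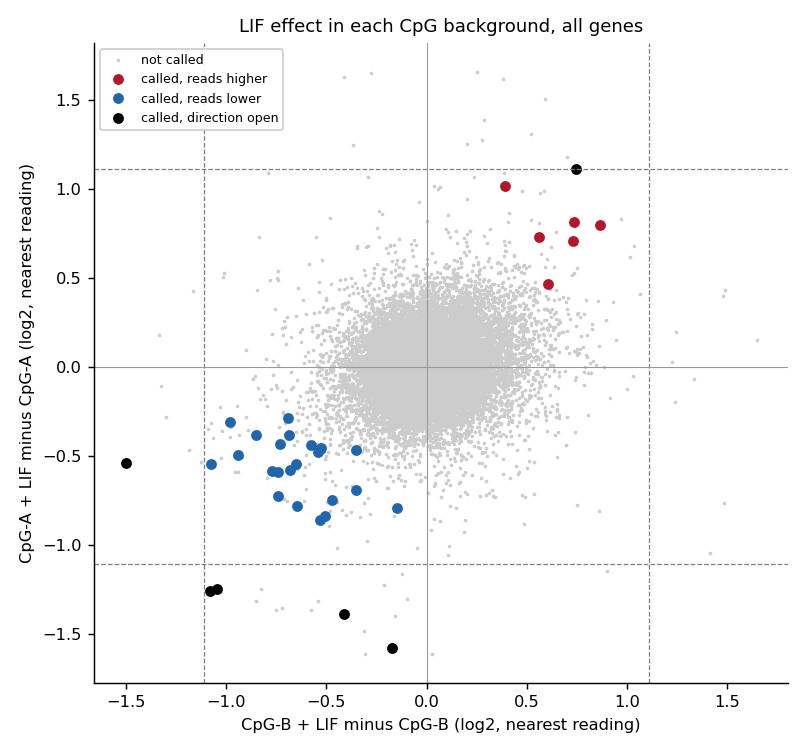
Nearest log2 reading of the LIF effect under CpG-A (vertical axis) against that under CpG-B (horizontal axis), one point per gene for 19751 genes. Called genes are coloured, 6 reading higher, 23 reading lower and 6 with undetermined direction, and the dashed lines mark the limit of 1.11 beyond which the direction is undetermined.

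Promoter sequences of the called genes were searched for a STAT-type palindrome, TTCNNNGAA, and for the core of an interferon-stimulated response element, GAAANNGAAA, on both strands. RefSeq promoters (GRCm38.p6, 250 bases before to 50 after the start of the gene) were found for 30 of the 35 genes, with 38 promoters in all. TTCNNNGAA occurred in 2 of these 38 promoters (5.26%), against 2726 of 32851 promoters in the table (8.3%). GAAANNGAAA occurred in 4 of the 38 (10.5%), against 1131 of 32851 (3.44%). The 4 promoters with GAAANNGAAA are shown because both promoters with TTCNNNGAA are among them, with the matches to either motif in capitals. A match describes letters in these windows and not a bound site. They belong to Jaml (chr9:45078933-45079232, plus strand), Gm1966 (chr7:106644596-106644895, minus strand), Gm12185 (chr11:48927133-48927432, minus strand) and Ifna12 (chr4:88603327-88603626, minus strand), each written 5′ to 3′ along its gene.
Jaml: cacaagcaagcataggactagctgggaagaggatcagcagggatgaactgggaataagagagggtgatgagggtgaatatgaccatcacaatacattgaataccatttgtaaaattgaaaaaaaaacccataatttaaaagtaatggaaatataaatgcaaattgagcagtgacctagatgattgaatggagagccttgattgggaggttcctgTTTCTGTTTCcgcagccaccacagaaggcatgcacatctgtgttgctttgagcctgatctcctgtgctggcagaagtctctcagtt
Gm1966: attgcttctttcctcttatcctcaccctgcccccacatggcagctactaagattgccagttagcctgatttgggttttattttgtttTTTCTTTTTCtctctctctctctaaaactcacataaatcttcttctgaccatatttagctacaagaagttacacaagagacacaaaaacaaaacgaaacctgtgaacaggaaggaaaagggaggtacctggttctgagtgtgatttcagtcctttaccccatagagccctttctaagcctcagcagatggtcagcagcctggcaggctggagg
Gm12185: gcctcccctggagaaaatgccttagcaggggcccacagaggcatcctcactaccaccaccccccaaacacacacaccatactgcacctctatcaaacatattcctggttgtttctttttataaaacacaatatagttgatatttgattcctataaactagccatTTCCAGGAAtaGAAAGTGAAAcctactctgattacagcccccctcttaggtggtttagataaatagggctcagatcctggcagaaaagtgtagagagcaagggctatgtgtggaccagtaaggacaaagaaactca
Ifna12: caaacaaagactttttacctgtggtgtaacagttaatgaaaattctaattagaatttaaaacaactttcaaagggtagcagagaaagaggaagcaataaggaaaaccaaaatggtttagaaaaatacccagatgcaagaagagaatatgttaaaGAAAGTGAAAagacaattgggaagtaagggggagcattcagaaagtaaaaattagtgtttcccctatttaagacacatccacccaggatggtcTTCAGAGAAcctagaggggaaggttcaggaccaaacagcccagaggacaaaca

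In Gm12185 the palindrome TTCCAGGAA begins at position -86 from the start of the gene, and in Ifna12 TTCAGAGAA begins at position -3. The matches of Jaml and Gm1966 lie on the opposite strand and so appear as their reverse complement. Gm1966 and Gm12185 read lower in the averaged effect, at -0.71 ± 0.13 and -0.67 ± 0.12, and carry no assigned role here. Gm1966 read -0.65, -1.15 and -0.54 in the CpG-A + LIF arrays, against -0.11, -0.11 and 0.22 in the CpG-A arrays. Under CpG-B, Gm1966 read -0.68, -0.60 and -0.66 with LIF, against 0.04, 0.26 and -0.30 without it. All 6 arrays with LIF lay below all 6 without it. Gm12185 read -0.60, -1.03 and -0.89 in the CpG-A + LIF arrays, against 0.03, 0.08 and -0.11 in the CpG-A arrays. Under CpG-B, Gm12185 read -0.36, -0.42 and -0.73 with LIF, against 0.12, -0.22 and 0.10 without it. Here too the arrays with and without LIF were apart under each CpG. Both calls depended on few arrays, since the 2 genes kept them in 2 and 3 of the 12 fits that left out 1 CpG array.

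Among surface receptors, P2ry13 had the smallest p-value and the largest averaged reading of the called genes, and Nrp1 came next by p-value. Nrp1 encodes neuropilin-1, a co-receptor for semaphorins and VEGF that is used as a marker of plasmacytoid dendritic cells in humans. Nrp1 read -0.49, -0.74 and -0.53 in the CpG-A + LIF arrays, against -0.09, -0.02 and 0.11 in the CpG-A arrays. Under CpG-B, Nrp1 read -0.80, -0.65 and -0.86 with LIF, against -0.19, 0.25 and -0.06 without it. All 6 arrays with LIF lay below every array of the same CpG without it. The averaged reading was -0.68 ± 0.09 (SE, 6 arrays with LIF and 6 without; 1.6-fold lower, limma adjusted p = 0.0116), from -0.59 under CpG-A and -0.77 under CpG-B. In resting cells LIF gave Nrp1 a reading of 0.06 ± 0.15 (not called).

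Il17rb encodes a subunit of the receptor for interleukin-25. Il17rb read -0.91, -0.87 and -0.80 in the CpG-A + LIF arrays, against -0.04, 0.05 and -0.02 in the CpG-A arrays. Under CpG-B, Il17rb read -0.47, -0.78 and -0.34 with LIF, against -0.04, 0.17 and -0.13 without it. The 3 CpG-A + LIF arrays lay close together, and no array with LIF overlapped those without it. Il17rb read lower by an average of -0.69 ± 0.10 (1.62-fold, adjusted p = 0.0148). P2ry13 encodes a receptor for ADP. P2ry13 read -1.29, -1.52 and -0.97 in the CpG-A + LIF arrays, against 0.08, 0.18 and -0.26 in the CpG-A arrays. Under CpG-B, P2ry13 read -1.13, -0.70 and -1.41 with LIF, against -0.56, 0.24 and 0.32 without it. The groups did not overlap under either CpG. P2ry13 averaged -1.17 ± 0.16 (adjusted p = 0.0116), with an undetermined direction, since the other readings were 2.06 under CpG-A and 2.24 under CpG-B. Nrp1, Il17rb and P2ry13 kept their calls in all 12 fits that left out 1 CpG array, and so did Plbd1, described with the genes that read above 0.

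Jaml and Cdh1, which encode adhesion molecules, were among the called genes reading lower. Jaml encodes a junctional adhesion molecule-like protein of leukocytes. Jaml read -0.52, -0.56 and -0.40 in the CpG-A + LIF arrays, against -0.02, -0.17 and 0.19 in the CpG-A arrays. Under CpG-B, Jaml read -0.88, -0.58 and -1.37 with LIF, against -0.11, 0.09 and 0.02 without it. Its arrays with LIF were below those without in each case, and its readings averaged -0.72 ± 0.11 (1.64-fold lower, adjusted p = 0.0148). Without CpG-B replicate 2 the reading was -0.695 and the adjusted p 0.0517. Cdh1 encodes E-cadherin, the adhesion molecule of epithelial junctions. Cdh1 read -0.51, -0.25 and -0.39 in the CpG-A + LIF arrays, against -0.16, 0.06 and 0.11 in the CpG-A arrays. Under CpG-B, Cdh1 read -1.04, -1.0 and -0.52 with LIF, against -0.27, 0.24 and 0.03 without it. No overlap was seen under either CpG, and Cdh1 averaged -0.62 ± 0.11 (1.53-fold lower, adjusted p = 0.0292), although it kept its call in only 4 of the 12 fits without 1 CpG array.

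St8sia1 encodes the sialyltransferase that makes the ganglioside GD3. St8sia1 read -0.52, -0.34 and -0.78 in the CpG-A + LIF arrays, against -0.14, 0.17 and -0.04 in the CpG-A arrays. Under CpG-B, St8sia1 read -1.37, -1.08 and -0.78 with LIF, against -0.08, 0.41 and -0.33 without it. The highest CpG-B + LIF array was below the lowest CpG-B array, and the same held under CpG-A. St8sia1 read lower by an average of -0.81 ± 0.13 (1.75-fold, adjusted p = 0.0148), the largest averaged reading among those with a determined direction below 0. Its adjusted p was 0.0542 without CpG-B + LIF replicate 1 (reading -0.74) and 0.0626 without CpG-A replicate 2 (-0.77).

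Arl14 encodes a small GTPase that in human dendritic cells acts on vesicles carrying MHC class II. Arl14 read -0.44, -0.22 and -0.25 in the CpG-A + LIF arrays, against 0.02, 0.00 and -0.01 in the CpG-A arrays. Under CpG-B, Arl14 read -1.16, -0.94 and -0.84 with LIF, against 0.03, -0.06 and 0.03 without it. The CpG-A and CpG-B arrays lay close to their means, and the lower readings with LIF were larger under CpG-B. Arl14 averaged -0.64 ± 0.10 (1.56-fold lower, adjusted p = 0.0148). Cpne2 encodes a copine, a calcium-dependent phospholipid-binding protein. Cpne2 read -0.67, -0.53 and -0.53 in the CpG-A + LIF arrays, against -0.03, -0.10 and 0.14 in the CpG-A arrays. Under CpG-B, Cpne2 read -0.75, -0.57 and -0.73 with LIF, against 0.08, 0.04 and -0.12 without it. All 6 arrays with LIF were apart from those without. Cpne2 averaged -0.63 ± 0.10 (1.55-fold lower, adjusted p = 0.0148). Without CpG-B + LIF replicate 1 the adjusted p was 0.0542 for Arl14 (reading -0.60) and for Cpne2 (-0.61).

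Gapt encodes a membrane adaptor that binds Grb2, and Sla2 a Src-like adaptor that dampens antigen receptor signalling. Gapt read -0.77, -0.97 and -0.45 in the CpG-A + LIF arrays, against -0.13, -0.10 and 0.23 in the CpG-A arrays. Under CpG-B, Gapt read -0.16, -1.0 and -1.06 with LIF, against -0.10, -0.03 and 0.14 without it. CpG-B + LIF replicate 1 was the array nearest to those without LIF. Sla2 read -0.60, -0.54 and -0.63 in the CpG-A + LIF arrays, against -0.22, 0.18 and 0.04 in the CpG-A arrays. Under CpG-B, Sla2 read -0.98, -0.39 and -0.85 with LIF, against -0.29, 0.13 and 0.16 without it. All arrays with LIF lay below those without. Gapt averaged -0.73 ± 0.14 and Sla2 -0.67 ± 0.13 (adjusted p = 0.0336 each). Tom1l2, a gene of endosomal sorting, averaged -0.61 ± 0.11 (adjusted p = 0.0292), and its readings were -0.75 under CpG-A and -0.47 under CpG-B. These 3 genes kept their calls in 2, 2 and 3 of the 12 fits that left out 1 CpG array.

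**Figure D2:**
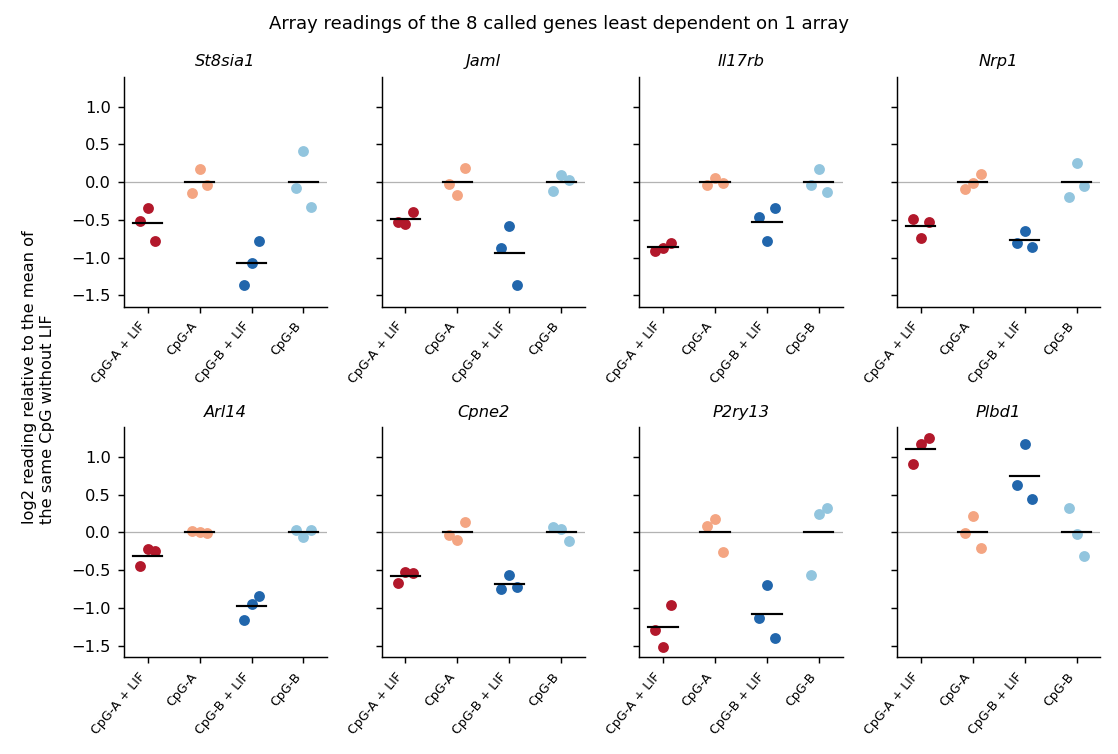
Log2 reading of each array relative to the mean of the same CpG without LIF, for the 8 called genes that kept their call in at least 9 of 12 fits without 1 array (3 arrays per group, horizontal bars are group means). The 6 arrays with LIF lie below those without for St8sia1, Jaml, Il17rb, Nrp1, Arl14, Cpne2 and P2ry13 and above them for Plbd1, with no overlap under either CpG. The genes were chosen by p-values from these same arrays.

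Itgax led the genes reading higher. It encodes CD11c, the integrin alpha chain by which dendritic cells are recognised and a part of the sorting gate, which was applied before treatment. Itgax read 1.25, 0.62 and 0.52 in the CpG-A + LIF arrays, against 0.25, -0.18 and -0.07 in the CpG-A arrays. Under CpG-B, Itgax read 1.07, 0.73 and 0.80 with LIF, against 0.46, -0.31 and -0.14 without it. The lowest array with LIF exceeded the highest without it under each CpG, and replicate 1 was the highest array in all 4 groups. Itgax averaged 0.83 ± 0.15 (1.78-fold higher, adjusted p = 0.0292), and it kept its call in 3 of the 12 fits without 1 CpG array. LIF also gave resting cells a reading of 0.66 for Itgax (not called, adjusted p = 0.295). No other marker of conventional dendritic cells was called.

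Dctd encodes dCMP deaminase, an enzyme of thymidine nucleotide supply, and Nudt4 an enzyme that hydrolyses diphosphoinositol phosphates. Dctd read 0.91, 0.83 and 0.70 in the CpG-A + LIF arrays, against 0.03, -0.19 and 0.16 in the CpG-A arrays. Under CpG-B, Dctd read 0.68, 0.66 and 0.87 with LIF, against 0.09, 0.14 and -0.23 without it. All arrays with LIF read above those without. Nudt4 read 0.56, 1.09 and 0.47 in the CpG-A + LIF arrays, against 0.05, -0.24 and 0.19 in the CpG-A arrays. Under CpG-B, Nudt4 read 0.74, 0.79 and 0.66 with LIF, against 0.10, 0.18 and -0.27 without it. The same separation was seen. Dctd averaged 0.77 ± 0.14 (1.71-fold higher, adjusted p = 0.0311) and Nudt4 0.72 ± 0.13 (1.64-fold higher, adjusted p = 0.0336). In resting cells LIF gave both genes readings below 0, at -0.52 and -0.09, neither called. Cfp encodes properdin, which stabilises the alternative complement convertase. Cfp read 1.33, 0.70 and 1.02 in the CpG-A + LIF arrays, against -0.34, 0.07 and 0.27 in the CpG-A arrays. Under CpG-B, Cfp read 0.36, 0.36 and 0.46 with LIF, against 0.18, -0.29 and 0.11 without it. Cfp averaged 0.70 ± 0.12 (adjusted p = 0.0292), with 1.02 under CpG-A and 0.39 under CpG-B.

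St6gal1, which adds sialic acid to N-glycans, averaged 0.65 ± 0.11 (1.56-fold higher, adjusted p = 0.0292), and Plscr3, a phospholipid scramblase of mitochondria, 0.53 ± 0.11 (1.45-fold higher, adjusted p = 0.0475). The readings of St6gal1 were 0.73 under CpG-A and 0.56 under CpG-B, and those of Plscr3 were 0.46 and 0.60, in the same order. Dctd, Nudt4, Cfp, St6gal1 and Plscr3 kept their calls in 1 to 4 of the 12 fits without 1 CpG array. Plbd1 encodes a phospholipase B-like protein of lysosomes and granules. Plbd1 read 0.91, 1.18 and 1.25 in the CpG-A + LIF arrays, against -0.01, 0.22 and -0.21 in the CpG-A arrays. Under CpG-B, Plbd1 read 0.63, 1.17 and 0.44 with LIF, against 0.33, -0.02 and -0.31 without it. All arrays with LIF exceeded those without. Plbd1 averaged 0.93 ± 0.14 (adjusted p = 0.0148), but its direction is undetermined because the CpG-A reading of 1.11 just passes the limit and its other reading is -2.21.

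Besides P2ry13 and Plbd1, 4 called genes had an undetermined direction. Xcl1 encodes lymphotactin, a chemokine that attracts cross-presenting dendritic cells. Xcl1 read -0.35, -0.64 and -0.64 in the CpG-A + LIF arrays, against 0.01, 0.10 and -0.11 in the CpG-A arrays. Under CpG-B, Xcl1 read -2.09, -0.85 and -1.56 with LIF, against -0.39, 0.59 and -0.20 without it. The groups were apart under both CpGs, and the size differed widely among CpG-B + LIF arrays. Xcl1 averaged -1.02 ± 0.18 (adjusted p = 0.0292), with -1.50 (or 1.82) under CpG-B. The averaged reading of Xcl1 turned to 0.54 (adjusted p = 0.311) without CpG-B replicate 1 and to 0.48 (adjusted p = 0.265) without CpG-B + LIF replicate 2. Nox1, a catalytic subunit of an NADPH oxidase, averaged -0.90 ± 0.17 and the unannotated Gm12253 -1.15 ± 0.22 (adjusted p = 0.0336 each). Their CpG-A readings were -1.39 (or 1.94) and -1.25 (or 2.07). Ifna12, the remaining gene, is given with the interferons.

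A further 10 called genes fell outside the naming rule and were picked out after their values were seen. All 10 read lower: Carmil1 and Daam1, regulators of actin filaments, the actin motor Myo6, the phospholipid flippase Atp8a1, the vesicle gene Sft2d2, the antiproliferative gene Btg2, the pseudokinase Trib1, the interferon-induced GTPase Gbp4, the flagellin sensor Naip5, and Gm10684. Their averaged readings ran between -0.58 for Carmil1 and -0.41 for Daam1, with adjusted p-values of 0.0292 to 0.0464. Trib1 read -0.48 under CpG-A and -0.54 under CpG-B, and Myo6 -0.80 and -0.15 in the same order. These genes kept their calls in 0 to 5 of the 12 fits that left out 1 CpG array.

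None of the 23 measured genes of LIF receptor, JAK and STAT signalling was called. Socs3, the feedback inhibitor that STAT3 induces, averaged 0.14 ± 0.11 (adjusted p = 0.808). It has 2 probe sets, and all its values here come from 1 of them. Socs3 read 0.46, 0.09 and -0.02 in the CpG-A + LIF arrays, against -0.15, 0.07 and 0.07 in the CpG-A arrays. Under CpG-B, Socs3 read 0.13, 0.05 and 0.15 with LIF, against 0.21, -0.18 and -0.04 without it. The arrays with and without LIF overlapped under both CpGs, and CpG-A + LIF replicate 1 was the highest. Stat3 averaged -0.13 ± 0.08 (adjusted p = 0.689), Jak1 0.00 (0.995) and Bcl3, a nuclear IkB protein, 0.16 (0.844). The receptor genes Lifr (-0.04, adjusted p = 0.952) and Il6st (0.07, 0.91), which encodes gp130, and Lif itself (-0.13, 0.825) were not called either. Because of the lost decimal mark, readings near 0 do not distinguish no change from one near 10-fold. The list had a median averaged reading of 0.0028, against 0.00447 over all genes.

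Of 34 measured STAT3 targets, 1 was called, and it read lower. Ccnd1, which encodes the G1 cyclin D1, is a textbook STAT3 target in proliferating cells. Ccnd1 read -0.36, -0.78 and -0.50 in the CpG-A + LIF arrays, against -0.13, -0.17 and 0.30 in the CpG-A arrays. Under CpG-B, Ccnd1 read -0.63, -0.59 and -0.74 with LIF, against -0.20, 0.18 and 0.02 without it. Arrays with LIF lay below those without in each case. Ccnd1 averaged -0.60 ± 0.11 (1.52-fold lower, adjusted p = 0.0336), and it kept its call in 2 of the 12 fits without 1 CpG array. In the STAT3 target list 19 members read above 0 under both CpGs and 5 below 0, against 27.8% and 25.9% of all genes. The other 10 had differing signs, and the list median was 0.0895. Uncalled members with the smallest p-values were Prdm1 (0.41, adjusted p = 0.306) and Cebpd (0.39, adjusted p = 0.381), named after their values were seen, as are the uncalled list members below.

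Among 11 measured type I and III interferon genes, 1 was called, Ifna12, and its direction is undetermined. Ifna12 read -1.63, -1.68 and -1.43 in the CpG-A + LIF arrays, against 0.57, -0.42 and -0.15 in the CpG-A arrays. Under CpG-B, Ifna12 read -0.33, -0.33 and 0.14 with LIF, against 0.25, -0.06 and -0.19 without it. All CpG-A + LIF arrays lay far from the CpG-A arrays, whereas the CpG-B + LIF and CpG-B arrays overlapped. Ifna12 averaged -0.88 ± 0.16 (adjusted p = 0.0311), from -1.58 (or 1.74) under CpG-A and -0.17 ± 0.23 under CpG-B. Without CpG-A replicate 2 the averaged reading of Ifna12 was 0.68 (adjusted p = 0.117), since the CpG-A reading then crossed to its other value. The difference between its CpG-A and CpG-B effects was -1.41 ± 0.32 (not called, adjusted p = 0.581). The Ifna genes resemble each other closely in sequence, and a probe set of 1 may also detect transcripts of another.

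Of the interferon genes, 8 read below 0 under both CpGs, against 25.9% of all genes, and 3 had differing signs. The median averaged reading was -0.717, made up of -1.31 under CpG-A and -0.155 under CpG-B. It was -0.371 without CpG-A + LIF replicate 1 and -0.393 without CpG-A replicate 2. Over only those members whose arrays spanned at most 1.66, which leaves out Ifna12 (span 2.30), the median was -0.082. Ifnb1, the gene of interferon beta, averaged -0.72 ± 0.17 (adjusted p = 0.089) and Ifna14 -0.97 ± 0.20 (adjusted p = 0.0658). Ifnb1 read -0.80, -1.89 and -0.98 in the CpG-A + LIF arrays, against 0.12, -0.26 and 0.14 in the CpG-A arrays. Under CpG-B, Ifnb1 read 0.03, -0.27 and -0.39 with LIF, against -0.32, -0.06 and 0.38 without it. The CpG-A readings of Ifnb1 were apart and the CpG-B readings overlapped. Ifna11 read 1.65 under CpG-A and -0.28 under CpG-B, and Ifna13 and Ifnl2 averaged 0.11 and -0.27. At an unadjusted p under 0.05, 7 of the 11 genes passed with the same sign under both CpGs, all with undetermined direction. Of all 19751 genes, 35 did so.

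**Figure D3:**
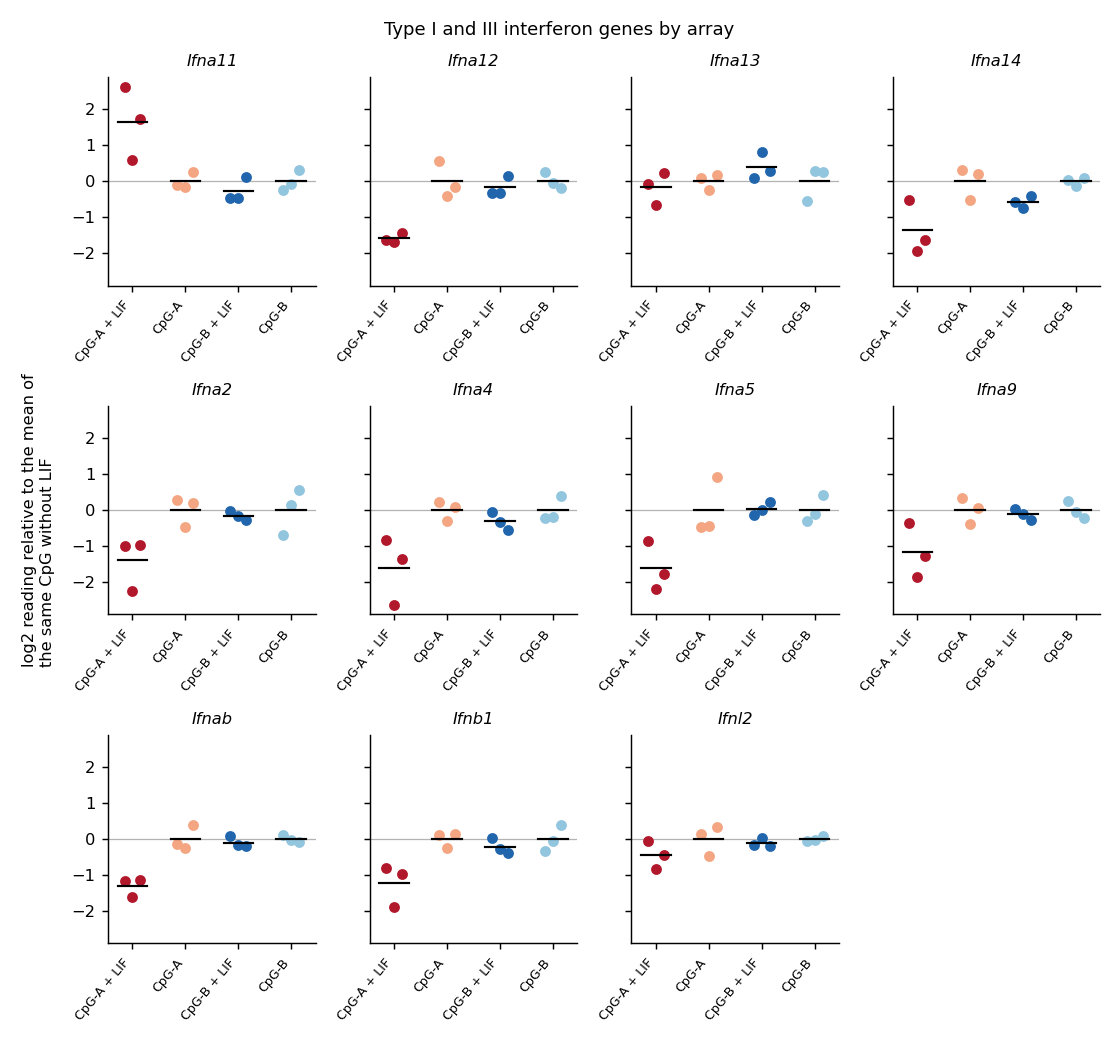
Log2 reading of each array relative to the mean of the same CpG without LIF for the 11 measured type I and III interferon genes (3 arrays per group, bars are group means). Under CpG-A the arrays with LIF read mostly below 0, with Ifna11 above, while under CpG-B they overlap those without LIF for every gene except Ifna14.

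The listed interferon-stimulated genes leaned to lower readings without any call. Of 37 measured, 30 read below 0 under both CpGs, 2 above 0 under both and 5 with differing signs, against 5111 genes (25.9%) below and 5492 (27.8%) above among all genes. Their median averaged reading was -0.252, and 15 passed an unadjusted p under 0.05, all reading lower, as did 3.71% of all genes. The interferon-induced GTPase gene Gbp4, which was called and read lower (-0.51 ± 0.09, limma adjusted p = 0.0292), is not in this list. Mx1, an antiviral GTPase, averaged -0.38 ± 0.10 (adjusted p = 0.154), Stat2, which carries interferon receptor signals to the nucleus, -0.32 ± 0.09 (0.175), and Irf7, which drives interferon transcription, -0.36 ± 0.13 (0.378). Mx1 read -0.05, -0.59 and -0.10 in the CpG-A + LIF arrays, against 0.12, -0.08 and -0.05 in the CpG-A arrays. Under CpG-B, Mx1 read -0.50, -0.57 and -0.46 with LIF, against 0.02, -0.02 and 0.00 without it. The CpG-B arrays were apart and the CpG-A arrays overlapped. The mean over the list ranged over -0.402 to -0.056 in CpG-A + LIF arrays, against -0.105 to 0.124 in CpG-A arrays, and over -0.297 to -0.136 in CpG-B + LIF arrays, against -0.049 to 0.043 in CpG-B arrays, so that it overlapped under CpG-A only. In resting cells LIF gave the list a median of 0.229.

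Surface and effector genes of plasmacytoid dendritic cells also tended to read lower, and none of the 26 measured was called. Under both CpGs 17 read below 0 and 1 above 0, against 25.9% and 27.8% of all genes, with 8 of differing sign. The median was -0.222 (-0.074 among the genes whose arrays spanned at most 1.66). Siglech, the lectin used in the sorting gate, averaged -0.44 ± 0.09 (adjusted p = 0.0658). Siglech read -0.13, -0.27 and -0.16 in the CpG-A + LIF arrays, against -0.04, 0.09 and -0.06 in the CpG-A arrays. Under CpG-B, Siglech read -0.89, -0.41 and -0.80 with LIF, against -0.01, 0.17 and -0.15 without it. Siglech arrays with LIF were below those without under each CpG, and further below under CpG-B. Smim5 averaged -0.69 ± 0.14 (adjusted p = 0.0658), Havcr1 -0.64 ± 0.14 (0.0775) and the endocytic adaptor Pacsin1 -0.45 ± 0.10 (0.0844). Array means of the list were -0.213 to -0.164 with CpG-A + LIF, against -0.14 to 0.094 with CpG-A, and -0.306 to -0.158 with CpG-B + LIF, against -0.07 to 0.094 with CpG-B. Transcription factors of these cells had 0 of 23 called and a median of -0.0738, with Spib at -0.32 ± 0.10 (adjusted p = 0.264) and Tcf4, their master regulator, at -0.18 ± 0.08 (0.53).

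Markers of macrophages and monocytes read the other way in the same arrays. None of 18 was called, and the median was 0.249. Under both CpGs 13 read above 0 and 0 below 0, against 27.8% and 25.9% of all genes, and 5 had differing signs. Lyz2, which encodes lysozyme, averaged 0.60 ± 0.20 (adjusted p = 0.318), Csf1r, the receptor of macrophage growth factor, 0.36 ± 0.14 (0.429) and Itgam, which encodes CD11b, 0.45 ± 0.19 (0.468). The mean over these markers was 0.222 to 0.376 in CpG-A + LIF arrays, against -0.139 to 0.084 in CpG-A arrays, and -0.064 to 0.324 in CpG-B + LIF arrays, against -0.158 to 0.083 in CpG-B arrays, and overlapped under CpG-B only. Neutrophil markers had a median of 0.251 with 0 of 15 called, led by Mpo at 0.52 ± 0.27 (adjusted p = 0.618). Their array means overlapped between groups, at -0.024 to 0.628 with CpG-A + LIF, against -0.355 to 0.444 with CpG-A, and -0.106 to 0.311 with CpG-B + LIF, against -0.212 to 0.278 with CpG-B. Medians were near 0 for B cell markers (-0.05, 0 of 15 called), T and NK cell markers (-0.0782, 0 of 13) and erythroid and megakaryocyte markers (-0.0899, 0 of 7), and -0.0375 for conventional dendritic cells (1 of 14 called, Itgax). The smallest p-values there belonged to Cd22 (0.53, adjusted p = 0.229), Cd4 (-0.44, 0.491) and Epor (-0.25, 0.306). The part of other cell types in the called genes was not tested.

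The listed cell cycle genes leaned to higher readings, with 0 of 28 called. Under both CpGs 21 read above 0 and 0 below 0, against 27.8% and 25.9% of all genes, with 7 of differing sign. The median was 0.22, with 0.121 under CpG-A and 0.319 under CpG-B. At an unadjusted p under 0.05, 13 passed, all reading higher, as did 4.62% of all genes. The G1 cyclin gene Ccnd1, counted with the STAT3 targets and not in this list, was called and read lower, at -0.60 ± 0.11. The mean over the list overlapped between groups under both CpGs, at 0.047 to 0.206 in CpG-A + LIF arrays, against -0.159 to 0.101 in CpG-A arrays, and at 0.145 to 0.381 in CpG-B + LIF arrays, against -0.206 to 0.158 in CpG-B arrays. Rrm2, a subunit of ribonucleotide reductase, averaged 0.65 ± 0.20 (adjusted p = 0.241), the replication helicase subunit Mcm4 0.38 ± 0.12 (0.256) and the cyclin Ccna2 0.31 ± 0.11 (0.332). Glycolysis genes had 10 of 14 above 0 under both CpGs, 1 below and a median of 0.15, with Ldha, lactate dehydrogenase A, at 0.34 ± 0.12 (adjusted p = 0.329). Cholesterol synthesis had 14 of 18 below 0 under both, 0 above and a median of -0.142, with Dhcr7, the last enzyme of the pathway, at -0.35 ± 0.14 (adjusted p = 0.407). Neither metabolic list had a called member.

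**Figure D4:**
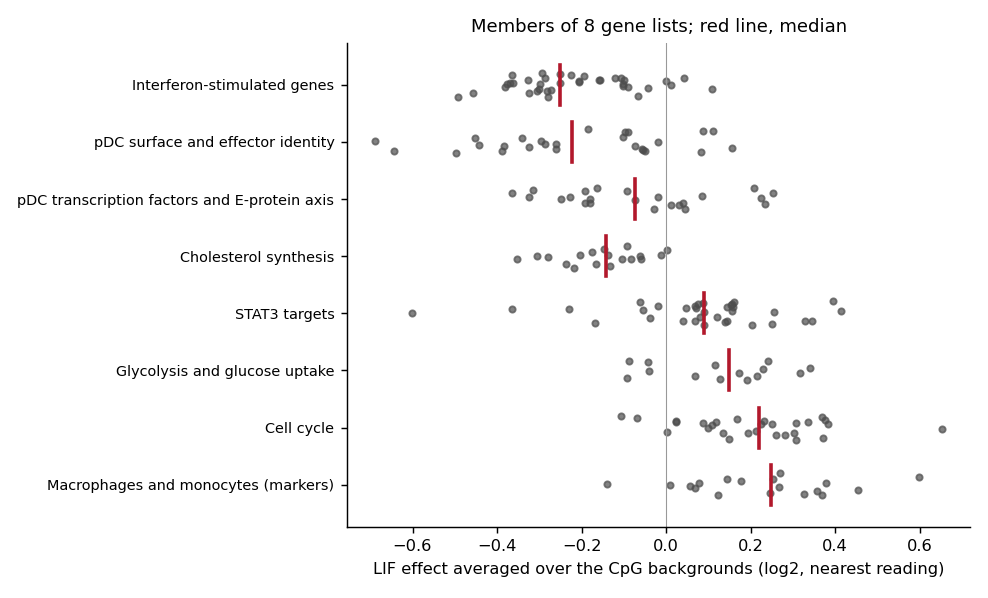
Averaged LIF effect (log2, nearest reading) of each measured member of 8 gene lists, one point per gene, with the list median as a red line. Medians run between -0.252 for interferon-stimulated genes and 0.249 for macrophage and monocyte markers, and the vertical line marks 0.

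The remaining lists had no called member. Inhibitory and lectin receptors had a median of 0.0864 over 25 genes, with 0.183 under CpG-A and 0.0275 under CpG-B. Their array means were apart under both CpGs, at 0.159 to 0.263 with CpG-A + LIF, against -0.135 to 0.092 with CpG-A, and at 0.048 to 0.118 with CpG-B + LIF, against -0.009 to 0.013 with CpG-B. At an unadjusted p under 0.05, 5 of them read higher, 1 lower and 1 had an undetermined direction. Among all genes 4.62% read higher and 3.71% lower at that threshold. Cd72, a B cell co-receptor with an inhibitory tail, averaged 0.45 ± 0.12 (adjusted p = 0.154) and the inhibitory receptor Cd300a 0.54 ± 0.15 (0.182). Inflammatory cytokines had a median of -0.0969 (22 genes), endosomal TLR sensing -0.0607 (24), MHC class I presentation -0.048 (14) and MHC class II presentation -0.0306 (14). NF-kB subunits and feedback genes had a median of -0.0255 (20 genes), the unfolded protein response -0.0254 (24), chemokines and their receptors -0.0108 (23), co-stimulation -0.00297 (24) and the BCL2 family -0.000225 (14). Lysosomal genes stood at 0.0164 (22 genes) and stress genes at 0.0367 (18).

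The effect of LIF on resting cells, LIF minus medium, is a difference between arrays outside the 12, but its test shares the spread of all 17. It rests on only 2 medium arrays and called 160 genes (0.81%), or 88 without LIF replicate 1. Leaving out either medium array leaves 1 in that group, and the count then fell further. The 160 genes therefore depend on both medium arrays. Of the 35 called genes, 23 (65.7%) read the same sign there, against 50.6% of all genes, and of the 29 with a determined direction 19 (65.5%) did. Conversely, 118 of the 160 genes called in resting cells (73.8%) had an averaged effect of the same sign. Genes called in both comparisons numbered 5, which is 14.3% of the 35 and 3.12% of the 160. Of these, Trib1 and Btg2 read lower both with CpG and in resting cells, where Trib1 read -0.92 and Btg2 -0.75. Gbp4 and Ccnd1, which read lower with CpG, had an undetermined direction in resting cells, at -1.12 (or 2.21) and -1.31 (or 2.01). Cdh1 went against this pattern, at -0.62 ± 0.11 with CpG and 0.93 ± 0.17 in resting cells (adjusted p = 0.012).

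The difference between the averaged effect and the resting effect, a test added after the data were seen, was called for 35 genes (0.177%). Among the 35 genes called in the averaged effect, 2 were in that set, Cdh1 (-1.54, adjusted p = 0.00205) and Gm1966 (-1.27, adjusted p = 0.0485). For Nrp1 the difference was -0.74 (adjusted p = 0.115) and for Jaml -0.85 (adjusted p = 0.137), and neither was called.

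**Figure D5:**
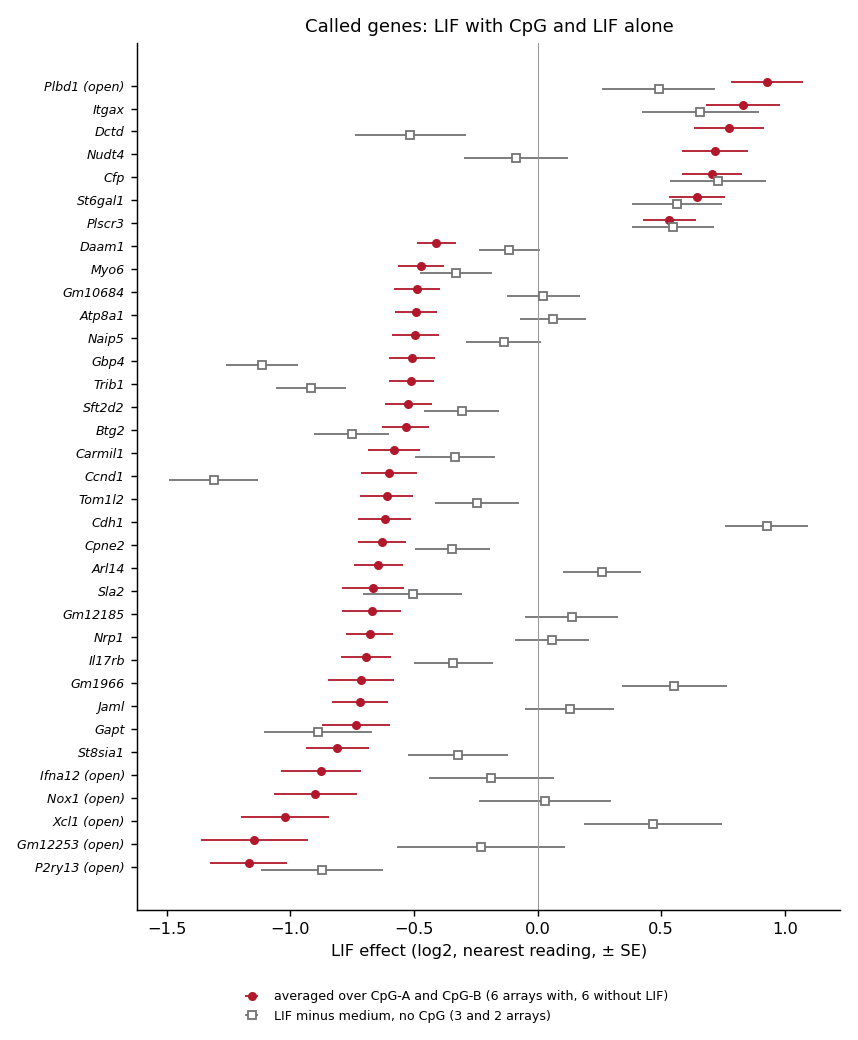
LIF effect (log2, nearest reading ± SE) of the 35 called genes averaged over the CpGs (red circles, 6 arrays with and 6 without LIF) and in resting cells (open squares, 3 LIF and 2 medium arrays). Of the 35 genes, 23 have the same sign in both, and Cdh1 is called on opposite sides of 0.

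Each CpG on its own gave fewer calls. LIF added to CpG-A called 1 gene, Ifna12 (0.00506%), with 1200 genes (6.08%) at an unadjusted p under 0.05. LIF added to CpG-B called 12 genes (0.0608%), with 1529 (7.74%) at an unadjusted p under 0.05, and 0 genes were called under both. Nrp1, Jaml, St8sia1, Arl14, Cdh1 and Xcl1 were the genes called under CpG-B that were also called on average. The other 6 were Cldn7, a claudin of tight junctions (1.22 ± 0.21, or -2.10), Map2k3os (1.24 ± 0.16, or -2.08), Vmn1r174, a vomeronasal receptor (0.91 ± 0.15), Osbpl3, an oxysterol-binding protein (0.82 ± 0.13), Nefh, a neurofilament subunit (0.69 ± 0.12), and Mctp2 (-0.78 ± 0.14). Under CpG-A these 6 read between -0.20 and 0.03. The CpG-B count was 1 without CpG-B + LIF replicate 1 or CpG-B replicate 2, 4 without CpG-B replicate 3, 5 without CpG-B + LIF replicate 3 and 7 without CpG-B replicate 1, and the CpG-A call was lost without replicate 1 or 2 of either CpG-A group. With the replicate number as a block, the CpG-B comparison called 19 genes, 10 of them among the 12, and these then included Itgax (0.87, adjusted p = 0.0233), Smim5 (-0.98, 0.0233), Siglech (-0.70, 0.0468) and Sla2 (-0.74, 0.0482).

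A direct test of the difference between the LIF effects under CpG-A and CpG-B called 0 genes (limma; 1009 genes, 5.11%, at an unadjusted p under 0.05), and 2 without CpG-A + LIF replicate 1. Genes called under 1 CpG are therefore not shown to differ between the CpGs. The largest gap among the genes called under CpG-B was that of Map2k3os, whose difference was -1.43 ± 0.22 (adjusted p = 0.104). Nrp1 gave a difference of 0.18 ± 0.19 (adjusted p = 0.998).

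The count of called genes depended on single arrays. It was 7 without CpG-B + LIF replicate 1, 8 without CpG-A replicate 2 and 9 without CpG-B replicate 2, and 11 to 23 without any one of the other 9 arrays. Of the 35 genes, 27 kept their call in at most 5 of these 12 fits, and Nrp1, Il17rb, P2ry13 and Plbd1 in all. The called genes also covered a wider range than most, since all 12 CpG arrays could be placed within 1.66 of each other for 9 of the 35 (25.7%), against 94.6% of all genes. This range includes differences between the groups, with LIF and between the CpGs, as well as the spread within them. In a fit restricted to genes that could be so placed, 0 were called, so these 9 lost their calls too.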

How the data were processed

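RNA of sorted mouse plasmacytoid dendritic cells was measured on 17 Affymetrix arrays in 6 groups. RMA is named in the submitters' processing notes. It is a method of background correction, normalization between arrays and summary over probes. Its version and any further steps were not stated in the labels. The deposited values are treated as a score, because all but 1 of the 419560 cells lack a decimal mark and the power of 10 of each value is unknown. No count test applies to them.

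The log2 of the digits was therefore taken modulo log2(10), with circular group means and deviations the shortest way, and LIF groups were placed at the nearest reading from their partner without LIF. Of 24680 probe sets, 21354 carry 1 symbol, 1275 several and 2051 none. Where a gene had more than 1 (893 genes), the one listing most accessions represents it, since the lost levels allow no choice by intensity. All 35 called genes have 1. The array annotation matched RefSeq gene IDs for 19676 of the 19751 genes. No gene was filtered out.

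The tests used limma (version 3.58.1, under R 4.3.3), fitting a mean for each group to the 17 arrays, which leaves 11 residual degrees of freedom. Variances were moderated, p-values were adjusted by Benjamini-Hochberg over 19751 genes, and genes with an adjusted p under 0.05 are referred to as called. The procedure was tested on simulated data. Genes named are the 12 lowest and 12 highest called readings with a determined direction, the called genes of undetermined direction by p (up to 8), those called under both CpGs or different between them, 7 genes of the LIF pathway, called members of the gene lists, and the member of each marker list with the smallest p. Others are said to be chosen after their values were seen. The gene set and the 27 gene lists (509 of 561 symbols measured) were chosen with earlier results of these data known, and no list was tested as a set.

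Alternatives were array medians removed, genes with a narrow range over the CpG arrays, all probe sets, the 12 CpG arrays alone, the replicate number as a block, other centres and joint readings, robust variances, and each array left out. No 2 arrays shared more than 19 identical values. Deviations of same-numbered arrays with and without LIF correlated at 0.126, 0.243 and 0.143 under CpG-B, at 0.075, 0.17 and 0.015 under CpG-A and at -0.023 and -0.02 without CpG, so the numbers were taken to pair samples under CpG-B only. Arrays give no counting depth, and their number limits the precision.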

Additional observations from a re-analysis of the deposited data

Results flagged for a closer look

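For 3 of the genes named in the report, the averaged LIF effect with CpG differed from the LIF effect in resting cells by a test of the difference itself (limma, adjusted over 19751 genes). Cdh1 read -0.62 with CpG and 0.93 in resting cells, a difference of -1.54 (adjusted p = 0.00205), and all arrays with LIF lay below those without under each CpG. Gm1966 read -0.71 with CpG and 0.55 in resting cells, a difference of -1.27 (adjusted p = 0.0485). Socs3 read 0.14 with CpG and -1.49 (or 1.83) in resting cells, a difference of 1.64 (adjusted p = 0.00205) whose direction is undetermined because of the resting reading. These Socs3 values come from 1 of its 2 probe sets. All 3 differences rest on the 2 medium arrays and 3 LIF arrays as well, and the count of genes with such a difference was 15 without medium replicate 1, 17 without medium replicate 3 and 16 without LIF replicate 1, against 35 with all arrays. Without CpG-B replicate 1, CpG-B + LIF replicate 1 or 3, or CpG-A replicate 3 it was 20 to 23.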

How the results depend on the processing

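The averaged effect called 36 genes with array medians removed, 33 over all probe sets, 38 with the 2 effects read jointly, 35 with robust variances, 35 with groups centred at an array and 32 with the 12 CpG arrays alone, and 35, 33, 35, 35, 35 and 25 of the 35 genes kept their call. Among genes spanning at most 1.66 it called 0 genes (0 higher, 0 lower), and LIF added to CpG-A called 0 and to CpG-B 3. That fit by construction leaves out 26 of the 35. With the 12 CpG arrays alone, CpG-A called 5 and CpG-B 3, and the cause was not tested. The replicate block gave 66 calls on average (18 higher, 38 lower; 34 of the 35 kept), 12 under CpG-A, 19 under CpG-B and 71 for the averaged minus the resting effect. Same-numbered arrays are not paired by the rule outside CpG-B. Leaving out 1 array at a time gave 7 to 23 calls on average (0 to 8 higher, 4 to 16 lower), 0 to 1 under CpG-A, 1 to 9 under CpG-B, 0 to 2 for their difference, 16 to 139 for LIF minus medium and 15 to 48 for the averaged minus the resting effect. Over these fits Xcl1 read between -1.07 and 0.54 and Ifna12 between -0.955 and 0.68. Readings turned for Xcl1, to 0.54 without CpG-B replicate 1 and 0.48 without CpG-B + LIF replicate 2, and for Ifna12, to 0.68 without CpG-A replicate 2. Of the list medians, those of the interferon genes and of the surface genes of plasmacytoid dendritic cells moved, as given in the report. The lost decimal mark hides levels, signal over background and changes near 10-fold.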

Other observations

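Some uncalled list members were picked out after their values were seen, and of these only Npc1 lay just short of the threshold. Npc1, which exports cholesterol from lysosomes, averaged -0.38 ± 0.08 (limma adjusted p = 0.0558), with -0.28 under CpG-A and -0.49 under CpG-B. The survival gene Bcl2 averaged 0.48 ± 0.13 (adjusted p = 0.18), and Tnfsf10, the gene of the death ligand TRAIL, -0.61 ± 0.17 (adjusted p = 0.19). Upb1, an enzyme of pyrimidine breakdown, averaged -0.50 ± 0.11 (adjusted p = 0.0863) and the chemokine receptor Ccr9, a homing receptor of these cells, -0.29 ± 0.09 (adjusted p = 0.269). None of these was called. Il1b read -0.27 ± 0.16 with CpG (adjusted p = 0.682) and 1.25 in resting cells given LIF (adjusted p = 0.025), and Cd69, an early activation marker, -0.27 ± 0.13 with CpG (adjusted p = 0.558) and 1.30 in resting cells (adjusted p = 0.0031). Both resting readings pass the limit of 1.11, so their direction is undetermined.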
